A study of Mus musculus with 12 samples.

Results

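The comparison described here was HSS9 knockout (KO) against wild-type (WT) macrophages that had received no lipopolysaccharide (LPS). It rested on 6 of the 12 libraries of the series, chosen by their labels as the 3 KO and the 3 WT libraries without LPS (KO UT and WT UT), and on all genes of the count table. The cells, BMDMs, were macrophages grown from mouse bone marrow over 6 days in medium with 20% L929-conditioned medium, a source of the growth factor M-CSF. KO mice were homozygous for a germline deletion upstream of Tnf, the gene of tumor necrosis factor alpha, so every cell of the animal carried it, and KO animals were kept as homozygous breeding pairs. WT mice carried the intact HSS9 locus. Per the methods of the study the mice were male and 7 to 10 weeks old. Cells of the UT groups were given phosphate-buffered saline for 6 hr, and the other 6 libraries were of KO and WT cells given LPS for 6 hr. The labels call the WT controls littermates and the methods describe purchased C57BL/6 mice, so the deletion and any other difference between the mouse lines cannot be told apart. The libraries of a group carry batch numbers, and nothing in the labels says that they came from separate animals, so the p-values measure the spread between these libraries, which may be technical.

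Resting macrophages make a trace of type I interferon, which acts on its receptor IFNAR and, through the kinases JAK1 and TYK2 and a complex that holds STAT2 and IRF9, keeps antiviral genes at a basal level. That complex binds the interferon-stimulated response element (ISRE) in the promoters of these genes. Macrophages grown with M-CSF also clear debris with complement C1q, Fc and scavenger receptors, export lipid with apolipoprotein E, and slowly leave the cell cycle as they mature.

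At rest the KO macrophages differed from WT in several gene classes. Interferon-stimulated genes were lower nearly throughout, and most genes of mitosis were lower. Many short protein-coding genes, among them most of those of histones, ribosomal proteins and the nuclear-encoded respiratory chain, were slightly to moderately higher, and small structured RNAs took a larger share of counts. With that share as a covariate, few of the mitotic, histone, ribosomal and respiratory genes passed the test. Genes of C1q, apolipoprotein E and several surface receptors were higher, while the transcription factors of the macrophage lineage did not pass the test.

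Of the 48526 genes in the table, 15523 had enough counts to be tested. Levels are given as CPM, the counts of a gene as a share of all counts of the library, after TMM scaling, which sets libraries to a common scale by trimmed log ratios, and a fold change is KO to WT on the log2 scale, given with its standard error (SE). A gene passed the test when its adjusted p from the edgeR quasi-likelihood test was below 0.05, and "higher", "rose", "lower" and "fell" are used for genes that passed. In all 2196 genes were higher in KO UT, which is 14.1% of those tested, and 1504 were lower, which is 9.69%. Most of these changes were small, with a median absolute log2 fold change of 0.392 among the 3700 genes. With the added demand of an absolute log2 fold change above 1, which is termed called below, 283 genes remained (1.82%), 159 higher (1.02%) and 124 lower (0.799%). Counts of list members below are to be read beside these shares of all genes and beside the 14.1% higher and 9.69% lower. Among 12231 protein-coding genes 179 were called (1.46%), 88 higher and 91 lower. The balance of directions depended on the scaling. Under the RLE scaling, 1724 genes were higher and 2745 were lower, and the median of all genes moved from 0.001 to -0.07, so the sign of a fold change smaller than this in size is not certain.

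The 6 libraries held 29430634 to 36423921 counts. The macrophage identity of the cells was checked on 15 surface and granule genes, of which Lyz2 (lysozyme) stood at 23032 to 23968 CPM in WT UT and 26956 to 27976 in KO UT, and Adgre1 (F4/80) at 1987 to 2059 and 2233 to 2392. Tnf, the gene downstream of the deletion, stood at 14.8, 15 and 16.2 CPM in WT UT and at 9.51, 10.5 and 9.1 CPM in KO UT, a log2 fold change of -0.66 ± 0.07 (adjusted p = 1.29e-06). Small structured RNAs took 3.00% to 3.25% of counts in WT UT and 6.64% to 7.98% in KO UT. After LPS the order was the other way, with 4.04% to 6.89% in WT and 3.23% to 3.43% in KO.

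Interferon-stimulated genes were lower with few exceptions. Of 57 tested members of the list, 51 were lower in KO UT and 0 were higher, against 9.69% lower and 14.1% higher among all genes. In each of the 51 every KO library lay below every WT library. Among all tested genes the KO libraries lay wholly below in 19.1% and wholly above in 21.6%, which applies to every such statement below. The median log2 fold change of the 57 members was -0.556, against 0.001 over all genes. Effectors that block viral replication counted 26 lower of 30, sensors and members of the ubiquitin-like ISG15 system 20 of 22, and transcription factors 5 of 5. The 6 members that did not pass were Isg20 (-0.19), Ifi35 (-0.07), Ube2l6 (0.00), Ifitm3 (0.03), Bst2 (0.09) and Ifi27l2a (0.19), all as log2 fold changes.

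Ifi44, an interferon-induced antiviral gene on chromosome 3, had the largest fold decrease of the list. Its levels were 48.4, 53.9 and 51.7 CPM in WT UT and 17, 15.7 and 17.9 CPM in KO UT, and the log2 fold change was -1.61 ± 0.07 (adjusted p = 1.68e-12). All KO libraries were far below all WT libraries. Irf7, the transcription factor that amplifies interferon production, was at 163, 159 and 163 CPM in WT UT and 70.6, 70.1 and 69.3 CPM in KO UT, with almost no spread among libraries of a group. Its log2 fold change was -1.21 ± 0.06 (adjusted p = 3.31e-12), and the gene shares its locus with Phrf1 on the other strand, so reads could not be assigned with certainty if strand was not used in counting. Oasl1, which holds back the translation of Irf7, fell by 1.15, and Slfn9, a member of the Schlafen family, fell by 1.09, both on the log2 scale. These 4 genes were the called members of the list.

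The remaining members moved by less. Ifit2, whose product binds foreign RNA, was at 190.5, 207 and 199.9 CPM in WT UT and 98.5, 100.02 and 103 CPM in KO UT, a log2 fold change of -0.99 ± 0.07. Isg15, the ubiquitin-like modifier, was at 36.3, 37.6 and 38.8 CPM in WT UT and 20.3, 20.1 and 19.6 CPM in KO UT. Rsad2 (viperin), which makes a chain-terminating nucleotide, was at 100.8, 105.3 and 103 CPM in WT UT and 54, 55.4 and 57.1 CPM in KO UT. For these 3 genes, too, the groups were well apart, and the log2 fold changes of Isg15 and Rsad2 were -0.91 ± 0.06 and -0.89 ± 0.05. Mx1, a GTPase that traps viral particles, fell by 0.81 on the log2 scale, and the RNA-binding synthetases Oas2 and Oas3 fell by 0.79 and 0.83. The RNA sensors Ifih1 (MDA5) and Ddx58 (RIG-I) fell by 0.66 and 0.64, and the nucleic acid sensor Zbp1 fell by 0.74. Rnf213, a giant ubiquitin ligase and the member with the highest level, was at 1416, 1418 and 1429.9 CPM in WT UT and 919, 927 and 918 CPM in KO UT. Among the factors that drive the class, Stat2 had a log2 fold change of -0.74 ± 0.05, Irf9 of -0.24 ± 0.06 and Irf1 of -0.20 ± 0.05.

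**Figure D1:**
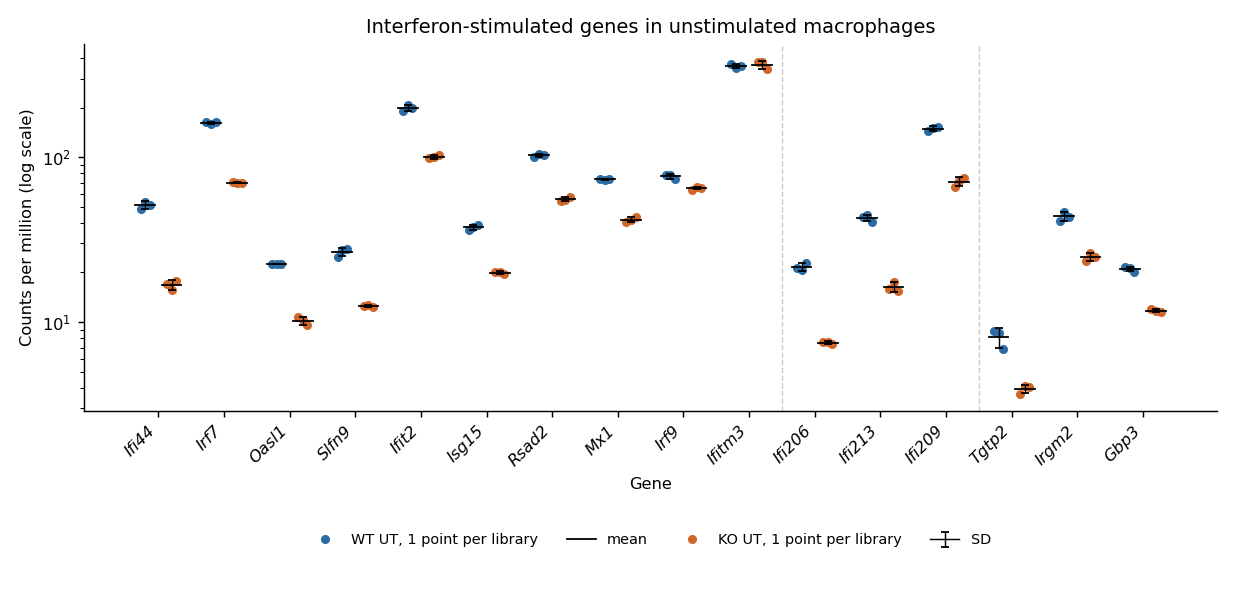
Levels of 16 interferon-stimulated genes in the 3 WT UT and the 3 KO UT libraries, on a log axis of CPM, with 1 point per library, the mean as a line and the SD as a bar. Dashed lines part the general list, the Ifi200 family and the GTPases. In all genes but Ifitm3 every KO library lies below every WT library, and the gap on the log axis is widest for Ifi44.

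The Ifi200 family, a cluster on chromosome 1 whose proteins bind DNA, followed the same direction, with 11 of 12 tested members lower, 0 higher and a median log2 fold change of -0.71. Ifi213 was at 43.6, 44.4 and 40.5 CPM in WT UT and 16, 17.6 and 15.5 CPM in KO UT, and Ifi206 at 21.4, 20.6 and 22.8 and 7.58, 7.58 and 7.33. Their log2 fold changes were -1.39 ± 0.06 and -1.53 ± 0.10. Ifi209 fell by 1.07 and Ifi204, a DNA sensor, by 0.56 on the log2 scale. Ifi208 was the extreme of the family. It was at 4.84, 4.68 and 4.74 CPM in WT UT and at 0.0578, 0.0587 and 0 CPM in KO UT, which is close to 0, and after LPS its group means were 98.0 CPM in WT and 0.415 CPM in KO. The members are closely related, and how the counting treated reads that fit several copies is not stated, so the split between members is uncertain.

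Guanylate-binding proteins and immunity-related GTPases, which attack the vacuoles of intracellular microbes, counted 15 lower of 18 tested and 0 higher, with a median log2 fold change of -0.768. Irgm2 was at 41, 46.8 and 43.4 CPM in WT UT and 23.5, 26.4 and 24.7 CPM in KO UT, a log2 fold change of -0.81 ± 0.08. Gbp3 was at 21.5, 21.3 and 20.2 CPM in WT UT and 12, 11.6 and 11.6 CPM in KO UT, a log2 fold change of -0.84 ± 0.07. Tgtp2 and Gvin1, at lower levels, fell by 1.03 and 1.02 on the log2 scale. The 3 members that did not pass were Gbp11, Tgtp1 and Gbp2b, each below 1 CPM in all 6 UT libraries.

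Of 13 receptors, kinases and regulators upstream of these targets, 3 were higher and 1 was lower, which is near the 14.1% and 9.69% of all genes. Ifnar1 and Ifnar2, the 2 chains of the type I interferon receptor, had log2 fold changes of 0.18 ± 0.05 and 0.34 ± 0.05, and Ifngr1, a chain of the interferon gamma receptor, of 0.32 ± 0.05. Ifnar1 did not pass under RLE scaling. Jak2 fell by 0.25, while Jak1 (-0.11), Tyk2 (-0.15), Irf3 (0.17) and Irf5 (0.09) did not pass. Tyk2 passed as lower under RLE scaling, with -0.221, and in 4 other settings. Ifnb1, the interferon beta gene, was at or below 0.0638 CPM in WT UT and at 0 in KO UT, which is too few reads for a comparison. Cxcl10, an interferon-induced chemokine, was at 7.3, 7.32 and 7.61 CPM in WT UT and 5.41, 5.61 and 4.35 CPM in KO UT.

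The promoters of these genes hold the letters of the ISRE in many cases. The ISRE was searched as GAAA, any 2 bases and GAAA, on both strands, from 250 bases before to 50 bases after the start of each gene in RefSeq promoters of GRCm38.p6. A gene was counted when any of its promoters held such letters. This was so for 22 of 45 genes with a promoter on the interferon-stimulated list (48.9%), 9 of 11 of the Ifi200 family (81.8%) and 11 of 12 of the GTPases (91.7%). Of 9827 tested protein-coding genes with a promoter 4.14% held them. Of all 32851 promoters, each counted alone and not by gene, 3.44% did. Among 72 protein-coding genes called lower 9.72% held them and among 65 called higher 9.23%. The windows below are shown for genes of each list whose changes are given above, 5′ to 3′ on the strand of the gene, with the ISRE letters in capitals and 25 bases on either side, and where the capitals read TTTC the match is on the other strand.
Slfn9 (chr11:82991841-82991900, minus strand): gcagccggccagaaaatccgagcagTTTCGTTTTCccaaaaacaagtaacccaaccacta
Isg15 (chr4:156200850-156200921, minus strand): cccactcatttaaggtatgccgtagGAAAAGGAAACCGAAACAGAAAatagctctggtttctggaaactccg
Rsad2 (chr12:26456538-26456597, minus strand): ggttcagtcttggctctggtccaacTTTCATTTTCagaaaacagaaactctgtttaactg
Ifi206 (chr1:173491324-173491383, minus strand): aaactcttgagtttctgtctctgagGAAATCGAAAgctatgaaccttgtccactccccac
Ifi213 (chr1:173599311-173599370, minus strand): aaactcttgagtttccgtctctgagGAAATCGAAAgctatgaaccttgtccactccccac
Tgtp2 (chr11:49064248-49064307, minus strand): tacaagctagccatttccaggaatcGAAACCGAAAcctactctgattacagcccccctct
Irgm2 (chr11:58214888-58214947, plus strand): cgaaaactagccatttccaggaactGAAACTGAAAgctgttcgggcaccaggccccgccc
Gbp3 (chr3:142559974-142560039, plus strand): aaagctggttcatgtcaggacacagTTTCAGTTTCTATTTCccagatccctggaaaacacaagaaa
The matches lay 29 to 110 bases before the start of the gene. In Isg15 3 overlapping matches formed 1 run. The windows of Ifi206 and Ifi213 were identical in 59 of 60 bases, and those of Tgtp2 and Irgm2, which are both GTPases, in 41 of 60. A match describes letters and is not a binding site, and in a promoter without a match it says only that these letters are not in this window.

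After LPS the difference was small. In the comparison of KO LPS with WT LPS, where 7.78% of all genes were higher and 6.54% were lower, 1 interferon-stimulated gene was higher and 12 were lower, with a median log2 fold change of -0.048. The change itself was tested with the interaction term, which is the log2 fold change after LPS minus that at rest. The term was above 0 at adjusted p below 0.05 in 50 of 57 members and below 0 in 1, against 7.32% and 9.5% of all genes. For the Ifi200 family it was above 0 in 10 of 12 and for the GTPases in 13 of 18, and below 0 in none of either. Irf7 had a log2 fold change of -0.06 after LPS, and the interaction term was 1.15 (adjusted p = 1.02e-08). Ifi44 had -0.26 after LPS, with an interaction term of 1.34 (adjusted p = 1.06e-08). Ifi208 was different, with -7.88 after LPS and an interaction term of -1.01 that did not pass.

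The decrease of interferon-stimulated genes at rest was read again under other settings. With any 1 of the 6 UT libraries left out, 51 members were lower. With the share of small structured RNAs as a covariate, 30 of 57 were lower and the median was -0.408. That share did not overlap between KO UT and WT UT. The slope of the covariate came from the spread of the share within the 4 groups, which was widest in WT LPS (4.04% to 6.89%). Values at rest with this covariate therefore lean on LPS libraries, and the part of the share in the result was not tested further. Of 210 genes named in the text 83 no longer passed with this covariate, and 22 changed sign, most of which also no longer passed. For these genes genotype and that share cannot be told apart. With offsets for exon length 56 were lower. The median exon length of the list was 3976 bases.

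Genes of the G2 and M phases of the cell cycle were lower as well. Of 30 tested members 23 were lower and 0 were higher, and the median log2 fold change was -0.76. Mki67, the proliferation marker Ki-67, was at 34.7, 37.7 and 37.7 CPM in WT UT and 17.8, 17.9 and 20.7 CPM in KO UT, a log2 fold change of -0.96 ± 0.07 (adjusted p = 7.13e-09). Top2a, the topoisomerase that untangles chromosomes, was at 31.7, 31.9 and 32.3 CPM in WT UT and 18.6, 18.6 and 19 CPM in KO UT, a log2 fold change of -0.77 ± 0.09. Every KO library lay below every WT library in both. Ccnb2, a mitotic cyclin, was at 5.08, 5.38 and 7.17 CPM in WT UT and 2.49, 3.29 and 3.11 CPM in KO UT.

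Other mitotic genes were at lower levels and noisier. Hmmr, a spindle-associated protein, fell by 1.30, the kinetochore protein Cenpf by 1.10, the kinesin Kif20a by 0.90, and the transcription factor Foxm1, which drives this class, by 0.84, all on the log2 scale. Cdk1, the kinase that starts mitosis, was at 21.4, 20.8 and 19.5 CPM in WT UT and 21.1, 20.4 and 19.6 CPM in KO UT, with a log2 fold change of -0.01 ± 0.08, and the groups overlapped. In bulk samples, fewer cells of a type and less RNA per cell cannot be told apart, here as in all results below. With the share of small structured RNAs as a covariate, 2 of the 30 passed, while the median was -0.738 and Cenpf changed sign. After LPS the median was -0.361 and 4 members were lower. The interaction term was above 0 in 5 and below 0 in none.

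Genes of the S phase did not move as a class, with 5 lower and 2 higher of 30 and a median log2 fold change of -0.092. Under RLE scaling 8 were lower and 1 was higher. Rrm2, the inducible subunit of ribonucleotide reductase, fell by 0.89 and Uhrf1, which maintains DNA methylation, by 0.53. Pcna, the replication clamp, was at 204, 196 and 209 CPM in WT UT and 283, 268 and 270.2 CPM in KO UT and rose by 0.43. The 6 subunits of the MCM helicase did not pass, with log2 fold changes from -0.18 for Mcm4 and -0.18 for Mcm3 to 0.06 for Mcm5. Among inhibitors of proliferation and p53 targets 6 were higher and 4 were lower of 17. Cdkn1a (p21) fell by 0.40 and Trp53 by 0.40, while Bbc3 (PUMA), a killer protein of the BCL2 family, rose by 0.62 and Bax by 0.41. With offsets for exon length 3 of the 17 were higher and 6 were lower, and with the share of small structured RNAs as a covariate 0 and 2, with Bax and Rrm2 changed in sign.

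Mitotic genes are known for a promoter with repeated CCAAT boxes, bound by NF-Y, and a CHR element, bound by MuvB complexes. The CCAAT box was searched as CCAAT and the CHR as TTTGAA, on both strands of the same windows. Of 25 mitotic genes with a promoter 19 held a CCAAT box (76.0%), 17 held a CHR (68%) and 15 held both (60.0%). Of tested protein-coding genes 43.2%, 14.7% and 6.18% did so, and of all promoters, each counted alone and not by gene, 37.4%, 17.9% and 6.95%. Of 25 S phase genes 64.0% held a CCAAT box and 8.0% a CHR. Of 53 histone genes, a list that was higher in KO UT, 83.0% held a CCAAT box, 45.3% a CHR and 43.4% both. Stretches of Ccnb2 and Mki67 are shown with the CCAAT boxes in capitals, ATTGG being the same box on the other strand.
Ccnb2 (chr9:70421546-70421666, minus strand): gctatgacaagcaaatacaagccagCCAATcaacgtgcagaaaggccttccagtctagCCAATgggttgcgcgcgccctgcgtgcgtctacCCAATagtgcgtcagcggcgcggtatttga
Mki67 (chr7:135716491-135716592, minus strand): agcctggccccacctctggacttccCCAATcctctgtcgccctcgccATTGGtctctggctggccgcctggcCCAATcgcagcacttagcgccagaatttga

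**Figure D2:**
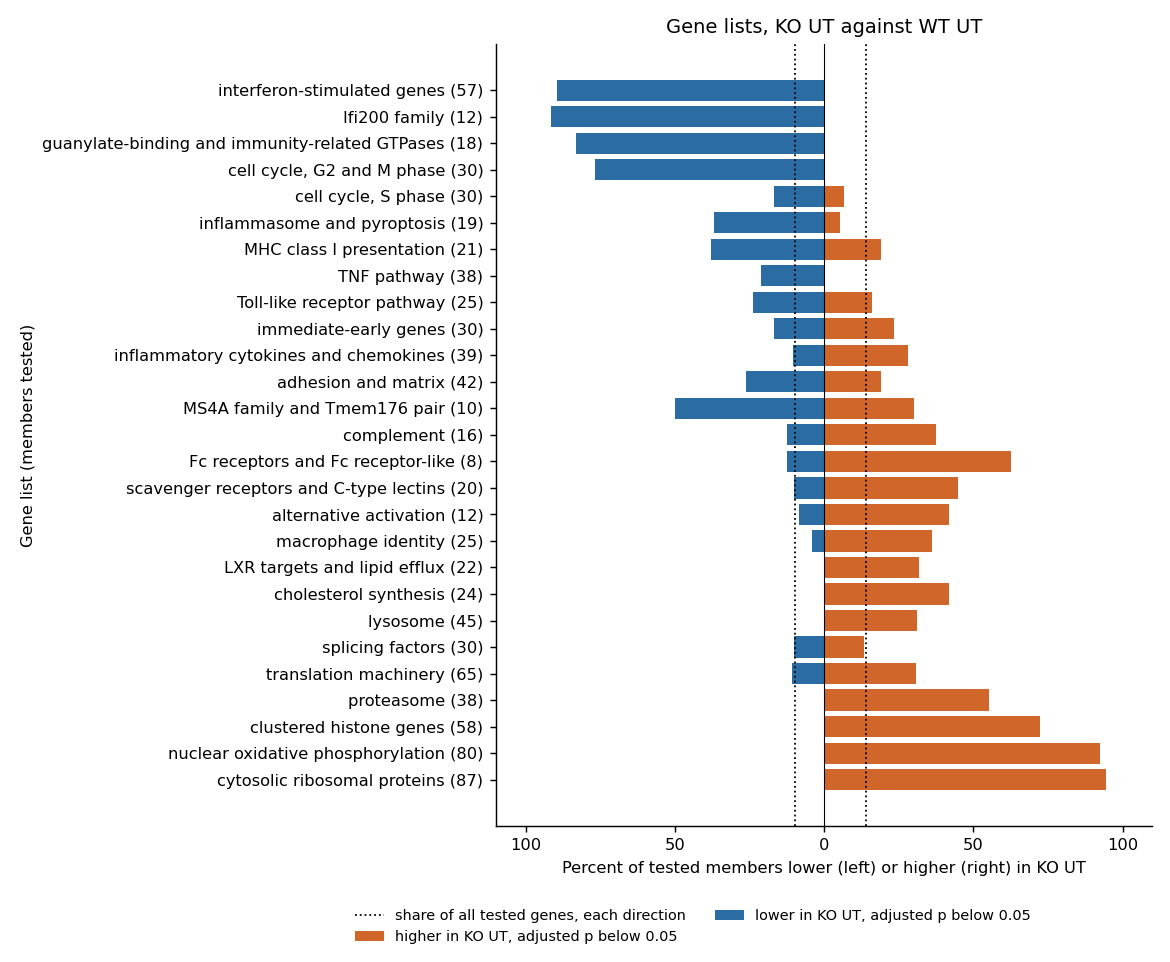
Percent of tested members of 27 gene lists that were lower (left, blue) or higher (right, orange) in KO UT than in WT UT at an adjusted p below 0.05, with the number of members tested in parentheses. Dotted lines mark the shares of all tested genes, 9.69% lower and 14.1% higher, and the interferon and mitotic lists stand far left and the ribosomal, respiratory and histone lists far right of them.

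Clustered histone genes, which are made mainly in S phase and mostly without a poly(A) tail, were higher. Of 58 tested 42 rose, 0 fell and 10 were called higher, beside 14.1% higher and 1.02% called higher among all genes. The median log2 fold change was 0.732. Hist1h1e, a linker histone, was at 73.7, 65.4 and 70.7 CPM in WT UT and 177, 153 and 138 CPM in KO UT, a log2 fold change of 1.16 ± 0.10 (adjusted p = 8.42e-08). Hist4h4, a core histone H4 gene outside the large clusters, was at 10.2, 8.8 and 10.2 CPM in WT UT and 23, 24.1 and 20.8 CPM in KO UT, a log2 fold change of 1.21 ± 0.11. In both genes the groups did not overlap. Hist2h2ab, an H2A gene, rose by 1.10 ± 0.17 from a low level. Several histone genes overlap a neighbour or have near-identical copies, Hist1h1e among them, so the split of reads between them is uncertain.

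Ribosomal protein genes rose almost as a block. Of 87 tested members 82 were higher and 0 were lower, and the median log2 fold change was 0.634. Rps29, a short member, was at 639.7, 583 and 616 CPM in WT UT and 1348, 1192 and 1036 CPM in KO UT, a log2 fold change of 0.96 ± 0.14. Rpl3, a longer one, was at 591, 574 and 599 CPM in WT UT and 723, 697 and 705 CPM in KO UT, a log2 fold change of 0.27 ± 0.05. All ribosomal protein genes of the list took 4.04% to 4.24% of counts in WT UT and 5.52% to 5.81% in KO UT. Many have near-identical pseudogenes, so the split of reads with those is uncertain. Nuclear genes of oxidative phosphorylation behaved alike, with 74 higher and 0 lower of 80 and a median of 0.591. Cox6b1, a subunit of cytochrome oxidase, was at 76.9, 76.9 and 78.6 CPM in WT UT and 157, 152 and 141 CPM in KO UT. Ndufv1, a catalytic subunit of complex I, had a log2 fold change of 0.11 ± 0.06 and did not pass. Of 11 genes encoded by the mitochondrial genome itself 3 were higher and 1 was lower. Of 38 proteasome genes 21 were higher and 0 were lower, with a median of 0.233, and Psmb6, a catalytic subunit, rose by 0.72. Under the covariate of small structured RNAs 2 of the 38 were higher and 0 were lower.

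The histone, ribosomal and respiratory lists hold short genes, and among protein-coding genes exon length went with the size of change. Exon length was counted as all bases covered by any exon of a gene, so it is not the length of 1 transcript. Among 51 protein-coding genes with under 500 exon bases, 27 were higher and 0 were lower, with a median log2 fold change of 0.61. In the class from 500 to 1000 bases 158 were higher and 10 were lower of 261, with a median of 0.578. The median then dropped to 0.283 from 1000 to 2000 bases, 0.062 from 2000 to 4000, -0.049 from 4000 to 8000 and -0.102 over 8000 bases, where 59 were higher and 470 were lower of 2197. After LPS the same 6 classes had medians of -0.267, -0.141, -0.012, 0.049, 0.026 and 0.001. The median exon lengths of the histone, ribosomal and respiratory lists were 536.5, 1734 and 1737 bases. Those of the ribosomal and respiratory lists lie in the class with a median of 0.283, while the medians of these lists were 0.634 and 0.591.

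The 3 lists were read again with the properties that moved with them. With offsets for exon length, which were chosen after the trend had been seen, 31 histone genes, 80 ribosomal protein genes and 61 respiratory genes were higher and 0 of any were lower, and the medians were 0.403, 0.435 and 0.366. With the share of small structured RNAs as a covariate, 2 histone genes were higher and 4 were lower, 4 ribosomal protein genes were higher and 5 were lower, and 3 respiratory genes were higher and 1 was lower, with medians of -0.177, -0.082 and -0.017. After LPS the medians of the 3 lists, without either adjustment, were -0.279, -0.13 and -0.08, and the interaction term was below 0 in 37 of 58, 78 of 87 and 63 of 80 members and above 0 in none. The part of exon length and of the small RNA share in these changes was not tested beyond these values.

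**Figure D3:**
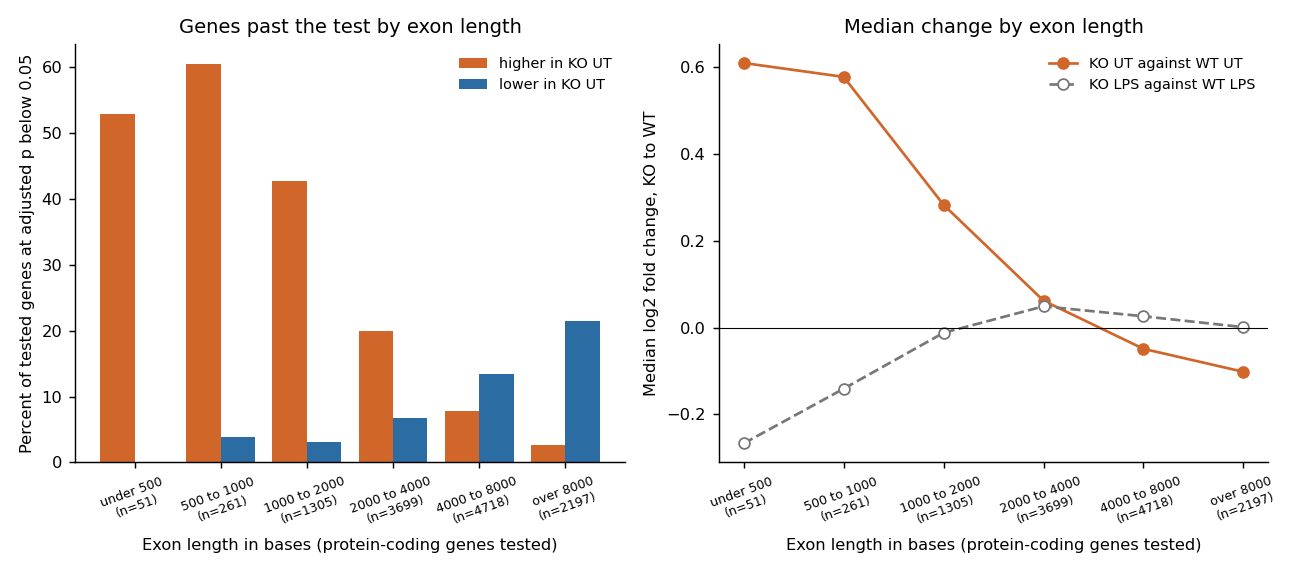
Left, percent of tested protein-coding genes in 6 classes of exon length that were higher (orange) or lower (blue) in KO UT at an adjusted p below 0.05. Right, the median log2 fold change of KO to WT in each class at rest (filled points) and after LPS (open points). At rest the median falls from 0.61 in genes under 500 bases to -0.102 in genes over 8000 bases, and after LPS it rises from -0.267 to values near 0.

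Among small structured RNAs the products of RNA polymerase III were mostly higher. This polymerase makes short noncoding RNAs that process or control other RNAs. Of 8 tested 6 were higher, all of them called, and 0 were lower, beside 14.1% higher and 1.02% called higher among all genes. The median log2 fold change was 1.416. Rn7sk, the 7SK RNA that holds back transcription elongation, was at 15419, 14238 and 14243 CPM in WT UT and 36279, 34883 and 29828 CPM in KO UT, a log2 fold change of 1.20 ± 0.12. Rpph1, the RNA of ribonuclease P, was at 6822, 6409 and 6233 CPM in WT UT and 24361, 23718 and 19715 CPM in KO UT, and Rmrp, the RNA of a related ribonuclease, at 2239.5, 2275 and 2069 CPM and 5950.4, 6629.6 and 5732 CPM. All KO libraries exceeded all WT libraries in these 3. Rn7s2 and Rn7s6, copies of the signal recognition particle RNA, rose by 1.54 ± 0.27 and 1.54 ± 0.27, and Scarna6, a guide RNA of Cajal bodies, by 1.53 ± 0.15. After LPS the polymerase III list had a median of -0.783, and the interaction term was below 0 in 7 of 8. With the share of small structured RNAs as a covariate, which is built from these same RNAs, 2 of the 8 were higher and 1 was lower. Of 12 small Cajal body RNAs 6 were higher and 0 were lower. Of 117 small nucleolar RNAs 8 were higher and 2 were lower, and of 57 small nuclear RNAs 4 were higher and 1 was lower, both shares below the 14.1% higher among all genes.

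Other RNA types were less uniform. Of 942 tested pseudogenes 181 were higher and 25 were lower, with a median log2 fold change of 0.236, and of 1175 long noncoding RNAs 64 were higher and 42 were lower. Of 14 host genes of small nucleolar RNAs 8 were higher and 0 were lower, Gas5 among them with 0.52 ± 0.07, and with the share of small structured RNAs as a covariate 0 were higher and 1 was lower. CT010467.1, annotated as ribosomal RNA, on chromosome 17 where it overlaps AY036118 and Gm42418, was at 17.8, 23.1 and 16 CPM in WT UT and 1267, 68.8 and 112 CPM in KO UT. Its log2 fold change was 4.67 ± 1.07. One library set most of it, KO UT library 1, without which the log2 fold change was 2.26 and did not pass. Among the largest decreases outside coding genes were Gm1966, at 29.8, 32.1 and 33.6 CPM in WT UT and 9.98, 10.4 and 9.46 CPM in KO UT, and the Ifi200 pseudogene Ifi203-ps, with a log2 fold change of -1.06 ± 0.08.

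Genes of complement were mixed around a strong rise of C1q. C1q is the recognition protein of the classical pathway, which macrophages secrete and which tags dying cells. C1qa was at 212, 202 and 206 CPM in WT UT and 580.5, 559 and 535 CPM in KO UT, a log2 fold change of 1.43 ± 0.07 (adjusted p = 1.45e-11). C1qc was at 519, 493 and 499 CPM in WT UT and 1060.3, 1002 and 966 CPM in KO UT, and C1qb at 389.9, 385 and 382 CPM and 613, 620.4 and 569.6 CPM, with log2 fold changes of 1.00 ± 0.06 and 0.64 ± 0.06. The 3 chains form 1 protein, and every KO library exceeded every WT library in each of them. Cd59a, an inhibitor of the membrane attack complex, was at 4.87, 4.24 and 3.89 CPM in WT UT and 11.3, 13.7 and 11.7 CPM in KO UT. C3, the central component, fell by 0.45. In all 6 of 16 tested complement genes were higher and 2 were lower. With offsets for exon length 7 were higher, and with the share of small structured RNAs as a covariate 4 were higher and 0 lower. After LPS 9 were higher and 0 were lower.

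Apoe, the apolipoprotein that carries lipid out of macrophages and a target of the oxysterol receptor LXR, was at 1399.7, 1342 and 1415 CPM in WT UT and 4403, 3784 and 3778 CPM in KO UT. The log2 fold change was 1.53 ± 0.07 (adjusted p = 3.31e-12), and the lowest KO library exceeded the highest WT library by far. Of 22 tested genes of lipid efflux and LXR control 7 were higher and 0 were lower, with a median log2 fold change of 0.055, and Abca1 (0.11), Abcg1 (-0.13), Srebf1 (0.00), Mylip (0.05) and the receptor gene Nr1h3 (-0.06) did not pass. Fabp4 and Fabp5, which carry fatty acids, rose by 0.85 ± 0.06 and 0.81 ± 0.07, and Abca9, a transporter, by 0.71 ± 0.07. Of 24 genes of cholesterol synthesis 10 were higher and 0 were lower, Tm7sf2 most at 0.70, but Srebf2 (0.00), the master regulator, did not pass. Under RLE scaling the lipid list had 5 higher and 3 lower, and cholesterol synthesis 8 and 1. Under the covariate of small structured RNAs they had 4 and 2 higher and 0 lower, and Fabp5 did not pass.

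Transcription factors that define the lineage did not pass in any of 10 cases, from Runx1 (-0.10) and Zeb2 (-0.10) to Spi1 (PU.1, 0.10) and Cebpb (0.22), as log2 fold changes. Their SEs ran from 0.05 to 0.09. Under RLE scaling Runx1 and Zeb2 passed as lower, each with -0.175, and Cebpb passed as higher in 4 settings, among them the fit of the compared groups only, with 0.215. Of 15 surface and granule genes 9 were higher and 1 was lower. Csf1r, the receptor of M-CSF, had a log2 fold change of -0.13 ± 0.05 (adjusted p = 0.0491), which lies close to the threshold and was the 1 decrease. With the replicate block it did not pass (adjusted p = 0.0812), nor with any 1 UT library left out. Tyrobp (DAP12), an adaptor of activating receptors, was at 1576, 1476 and 1502 CPM in WT UT and 2676, 2616 and 2318 CPM in KO UT, and Aif1 (IBA1), an actin-bundling protein, at 53.3, 49.7 and 53.4 CPM and 97.4, 92.6 and 90 CPM. Cd14, the co-receptor for LPS, rose by 0.46 ± 0.05 and Cd68, a lysosomal glycoprotein, by 0.40 ± 0.06. When the share of small structured RNAs was a covariate Tyrobp had -0.23 and did not pass, nor did Cd14 and Cd68. Under RLE scaling the identity list had 8 higher and 3 lower, and with the covariate 4 and 0.

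Several receptors of clearance were higher. Fcrls, an Fc receptor-like protein of macrophages and microglia, was at 58.3, 52 and 59.7 CPM in WT UT and 113, 108 and 111 CPM in KO UT, a log2 fold change of 0.97 ± 0.06 (adjusted p = 1.28e-10). Fcgr3, a low-affinity IgG receptor, rose by 0.44 ± 0.05 and its signalling chain Fcer1g, which did not pass with offsets for exon length, by 0.43 ± 0.07, Fcgr4 fell by 0.21, and Fcgr1, the high-affinity receptor, had -0.01 ± 0.05 and did not pass. Mrc1, the mannose receptor, was at 111, 112 and 113 CPM in WT UT and 179.6, 188 and 194 CPM in KO UT, and Folr2, a folate receptor, at 72.6, 70.6 and 72.9 CPM and 129.9, 124 and 129.9 CPM. Cd36, a scavenger receptor for oxidized lipid, rose by 0.66 ± 0.06 and Cd5l, a secreted scavenger protein, by 0.56 ± 0.06, whereas Msr1, the class A scavenger receptor, fell by 0.27. Of 20 scavenger receptors and lectins 9 were higher and 2 were lower, and of 12 genes linked to alternative activation 5 were higher and 1 was lower. Under the covariate of small structured RNAs 6 and 2 of them were higher and 0 were lower, and Fcer1g and Msr1 changed sign.

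Ms4a and Tmem176 genes, which encode related membrane proteins with 4 spans, went both ways. Ms4a4c, which is high in monocytes, was at 78.6, 78.6 and 81.1 CPM in WT UT and 34.9, 35.9 and 39 CPM in KO UT, a log2 fold change of -1.12 ± 0.05. Ms4a7, which is high in mature macrophages, was at 551, 549.6 and 559 CPM in WT UT and 922, 943 and 910.3 CPM in KO UT, a log2 fold change of 0.74 ± 0.07. Tmem176b was at 35.5, 36.1 and 38.7 CPM in WT UT and 87.9, 87.4 and 85.4 CPM in KO UT, and its partner Tmem176a, on the other strand of the same locus, rose by 1.02 ± 0.09. Ms4a4a, Ms4a6b, Ms4a6c and Ms4a6d fell by 0.40, 0.47, 0.36 and 0.29. After LPS these 4 genes had log2 fold changes of 0.28, 0.18, 0.28 and 0.33, all above 0.

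**Figure D4:**
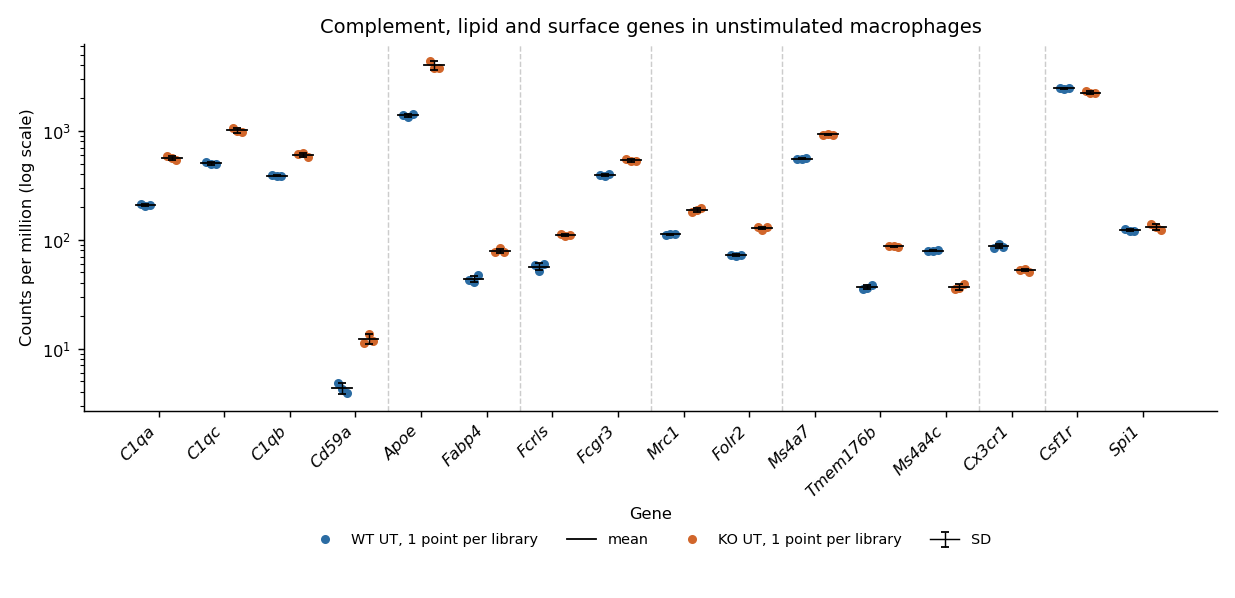
Levels of 16 complement, lipid, receptor and identity genes in the 3 WT UT and the 3 KO UT libraries, on a log axis of CPM, with 1 point per library, the mean as a line and the SD as a bar. Dashed lines part the gene groups. C1qa, Apoe, Cd59a and Tmem176b lie clearly higher in KO, Ms4a4c and Cx3cr1 lower, and Csf1r and Spi1 nearly level.

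Of 45 lysosomal genes 14 were higher, 0 were lower and 31 did not pass, with a median log2 fold change of 0.077. Ctsk, a collagen-degrading cathepsin, was at 36.4, 36.3 and 38.5 CPM in WT UT and 52.4, 52 and 54.6 CPM in KO UT, a log2 fold change of 0.52 ± 0.06. Hexa, Lgmn and Ctss, which break down glycolipids, proteins and antigens, rose by 0.34, 0.33 and 0.21. Ctss had -0.028 with offsets for exon length and did not pass, and Lgmn did not pass with the share of small structured RNAs as a covariate. Under RLE scaling 7 were higher and 4 were lower with a median of 0.004, and with offsets for exon length 10 were higher and 5 were lower.

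Genes of the TNF pathway were lower where they passed. Of 38 tested members 8 were lower (21.1%) and 0 were higher, beside 9.69% and 14.1% of all genes, with a median log2 fold change of -0.083. Beside Tnf they were its receptor Tnfrsf1b (TNFR2), at 631, 619 and 623 CPM in WT UT and 506, 515 and 494 CPM in KO UT, the adaptors Traf1 (-0.39) and Traf3 (-0.23), the death-blocking genes Cflar (-0.25) and Birc3 (-0.22), the inhibitor Tnip1 (-0.26) and Rhbdf2 (-0.20), which brings the sheddase to the surface. The main receptor Tnfrsf1a (-0.03), the sheddase Adam17 (-0.03) and the 5 NF-kappaB subunits did not pass, and the target genes Nfkbia (0.03) and Tnfaip3 (-0.01) did not either. Lta and Ltb, the neighbours of Tnf on chromosome 17, were each below 0.4 CPM in all 6 UT libraries. Under RLE scaling 13 were lower and 0 were higher, with offsets for exon length 10 and 2, and with the share of small structured RNAs as a covariate 1 was lower and 2 were higher, with a median of 0.02 and Cflar and Birc3 changed in sign. Among Toll-like receptor genes 4 were higher (16%) and 6 were lower (24%) of 25, beside 14.1% and 9.69% of all genes. Under RLE scaling 3 were higher and 12 were lower, and with the covariate 1 and 0. Tlr3 and Tlr7, which sense RNA, fell by 0.51 and 0.31 and Tlr2 by 0.27, Ly96 (MD-2), the partner of Tlr4, rose by 0.45, and Tlr4 itself had -0.15 ± 0.07 and did not pass. Ly96 did not pass with offsets for exon length, at 0.166. Tlr4 passed as lower under RLE scaling, with -0.222, and in 4 other settings.

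Cytokine and chemokine genes did not share a direction, with 11 higher and 4 lower of 39 and a median log2 fold change of 0. Cxcl1, a neutrophil attractant, was at 1.36, 1.54 and 1.47 CPM in WT UT and 5.93, 6.37 and 5.61 CPM in KO UT, a log2 fold change of 2.03 ± 0.10 (adjusted p = 4.53e-12). Il10, an anti-inflammatory cytokine, was at 4.91, 4.35 and 5.19 CPM in WT UT and 9.34, 7.9 and 8.7 CPM in KO UT, a log2 fold change of 0.84 ± 0.09. The groups did not overlap in either gene. Ccl8 and Cxcl14 were also called, from levels below 1 CPM in WT UT. Il1rn, the interleukin 1 receptor antagonist, fell by 0.52, Ccl22 by 0.71 and Ccl5 by 0.40, while Il1b (-0.10), Ccl2 (-0.28) and Il6 (-0.37, below 1 CPM) did not pass. Without KO UT 3 neither Ccl5, at -0.239 (adjusted p = 0.107), nor Ccl22 passed. Ccl5 did not pass without WT UT 3 either, nor Ccl22 without WT UT 2 or with the covariate, at -0.048. After LPS Il10 turned, with a log2 fold change of -0.59 and an interaction term of -1.43 (adjusted p = 3.87e-08). Under RLE scaling the counts at rest were 8 and 8, with offsets for exon length 7 higher and 11 lower, and with the share of small structured RNAs as a covariate 3 and 4.

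Of 9 genes of nitric oxide, arginine and itaconate metabolism 4 were lower and 3 were higher at rest. Acod1, which makes itaconate, was at 21.7, 21.8 and 24 CPM in WT UT and 11.4, 10.3 and 8.57 CPM in KO UT, a log2 fold change of -1.16 ± 0.07 (adjusted p = 5.15e-10). Ass1, which recycles citrulline to arginine for nitric oxide, was at 7.58, 7.72 and 6.53 CPM in WT UT and 3.9, 2.82 and 3.06 CPM in KO UT, and Slc7a2, an arginine importer, fell by 0.98. Nos2, the inducible nitric oxide synthase, was among the 4 lower but stood at no more than 0.257 CPM in any UT library, with an adjusted p of 0.0441. It did not pass with the replicate block (adjusted p = 0.0541), where 3 members were lower, nor with several of the UT libraries left out 1 at a time. Odc1, which turns arginine products into polyamines, rose by 0.40 ± 0.05. After LPS the log2 fold changes of Acod1, Ass1 and Slc7a2 were 0.05, -0.11 and -0.06, and the interaction term of Acod1 was 1.21 (adjusted p = 6.24e-08).

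Of 4 tested paired immunoglobulin-like receptors 3 were lower and 0 were higher at rest. Pira2, an activating receptor, was at 23.4, 22.9 and 22.9 CPM in WT UT and 2.49, 2.06 and 1.31 CPM in KO UT, and Gm14548 of the same family at 19.7, 19.1 and 19.8 CPM and 7, 5.64 and 7.84 CPM. Lilra6 fell by 0.60, while the inhibitory receptor Pirb was at 569.5, 538 and 551 CPM in WT UT and 568, 529 and 529 CPM in KO UT, a log2 fold change of -0.03 ± 0.05. After LPS Pira2 and Gm14548 had -4.04 and -1.54, and the interaction terms did not pass. These genes are near-identical copies, so the split of reads between them is uncertain.

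A list of genes that differ between laboratory strains or substrains of mice was read beside these results. Of 11 tested 3 were higher and 3 were lower. Nnt, a mitochondrial transhydrogenase that is deleted in part in C57BL/6J, was at 26.9, 26.3 and 24.2 CPM in WT UT and 49.2, 53.1 and 51.2 CPM in KO UT. Mid1, which lies at the edge of the X chromosome pseudoautosomal region, was at 9.01, 8.34 and 8.46 CPM in WT UT and 1.13, 0.529 and 0.455 CPM in KO UT, and Wdfy1, an adaptor of endosomal Toll-like receptors, at 25.8, 22.1 and 23.2 CPM and 44.2, 41.6 and 41 CPM. The groups did not overlap in any of the 3. The part of genetic background in the other results was not tested.

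Adhesion and matrix genes went both ways. Vcan, a large proteoglycan made by monocytes, was at 28.8, 30.1 and 33.9 CPM in WT UT and 9.05, 8.64 and 9.43 CPM in KO UT, a log2 fold change of -1.77 ± 0.08, and the interaction term was 1.46 (adjusted p = 1.06e-08). Adam19, a membrane protease, was at 3.42, 2.63 and 3.15 CPM in WT UT and 10.6, 10.6 and 9.84 CPM in KO UT, a log2 fold change of 1.76 ± 0.11. The integrin Itgal (LFA-1 alpha) was at 116, 118 and 116 CPM in WT UT and 63.8, 66.8 and 63.8 CPM in KO UT, and Itga4 and Cd44 fell by 0.43 and 0.34. Timp1, a protease inhibitor, rose by 1.26 ± 0.19 from about 1 CPM. Of 42 genes 8 were higher (19%) and 11 were lower (26.2%), beside 14.1% and 9.69% of all genes. When the share of small structured RNAs was a covariate 4 were higher and 4 were lower, Timp1 did not pass and Cd44 changed sign. Among chemokine receptors Cx3cr1, the fractalkine receptor, was at 83.5, 90.9 and 86.4 CPM in WT UT and 52.7, 53.7 and 50.9 CPM in KO UT, Ccr2 fell by 0.33, with the opposite sign under the covariate, and Ccr3 rose by 0.62.

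Other protein-coding genes also had large changes. Gdf3, a ligand of the TGF-beta family, was at 11.6, 12 and 11.2 CPM in WT UT and 4.4, 3.94 and 3.87 CPM in KO UT. Slfn4 and Slfn1, Schlafen genes that were not on the interferon list, had log2 fold changes of -1.50 ± 0.06 and -1.38 ± 0.11. Lrmda, a gene of pigment cell differentiation, had -1.43 ± 0.16. Cbr2, a carbonyl reductase, was at 8.26, 8.91 and 8.83 CPM in WT UT and 21.2, 18.1 and 19.6 CPM in KO UT, and Rac3, a small GTPase, at 3.13, 3.18 and 3.25 CPM and 7.14, 6.99 and 7.06 CPM.

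Some markers of other cell types moved with genotype. Several are also expressed by macrophages and were not low, such as Ccr2 at 187 to 205 CPM in WT UT and Blnk at 62.1 to 68.5 CPM. Of 11 tested neutrophil markers 5 were higher and 2 were lower. S100a8, a calcium-binding protein of neutrophils and monocytes, was at 7.51, 7.21 and 7.23 CPM in WT UT and 15.6, 18.1 and 15.4 CPM in KO UT. Its partner S100a9 was at 10.8, 10.5 and 11.7 CPM in WT UT and 26.8, 26 and 23.6 CPM in KO UT, and Camp and Mpo were below 1.1 CPM in all 6 UT libraries. Ly6g was at 0 in all 6 libraries, and the summed level of the 16 markers was 141 to 144 CPM in WT UT and 148 to 150 CPM in KO UT. Most of this sum came from Csf3r and Mmp8, which were the 2 that fell, by 0.15 and 0.45 on the log2 scale, and the 5 that rose, Retnlg among them, were all called. Csf3r lies close to the threshold and did not pass with the replicate block (adjusted p = 0.0644), nor with any 1 UT library left out, and Retnlg did not pass without KO UT 2 (adjusted p = 0.0578). When the share of small structured RNAs was a covariate 0 of the 11 were higher and 0 were lower. Monocyte markers summed to 309 to 335 CPM in WT UT and 213 to 236 CPM in KO UT, with 3 lower (Vcan, Ms4a4c and Ccr2) and 2 higher of 9. Megakaryocyte markers summed to 24.5 to 28.0 CPM in WT UT and 41.8 to 47.9 CPM in KO UT, most of it Pf4, which macrophages also express and which was at 19.6, 19.7 and 19.2 CPM and 34.3, 36.5 and 30.9 CPM. Stromal markers summed to 30.4 to 32.4 CPM in WT UT and 40.1 to 44.8 CPM in KO UT, with 7 higher and 0 lower of 15 and Lum at 0, and Acta2, a smooth muscle actin, rose by 0.96 ± 0.13. Of B cell markers Ighm was at 18.4, 18.5 and 20.5 CPM in WT UT and 37.1, 38.5 and 37.8 CPM in KO UT while 7 of 10, Pax5 among them, were under 1 CPM in all 6 libraries. Markers of dendritic cells and of T and NK cells had 0 higher and 0 lower of 9 and of 3. Osteoclast markers had 3 higher and 1 lower of 8, and mast cell and basophil markers 1 higher of 3. Of red cell precursor markers 5 of 10 were at 0 in all 6 libraries, the globins Hba-a1, Hba-a2, Hbb-bs and Hbb-bt among them. The libraries were made with the Globin version of the kit, which is meant to remove globin RNA. The zeros of globin genes therefore cannot tell whether such cells were present. The share of other cells in the cultures, and its part in these results, was not tested.

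**Figure D5:**
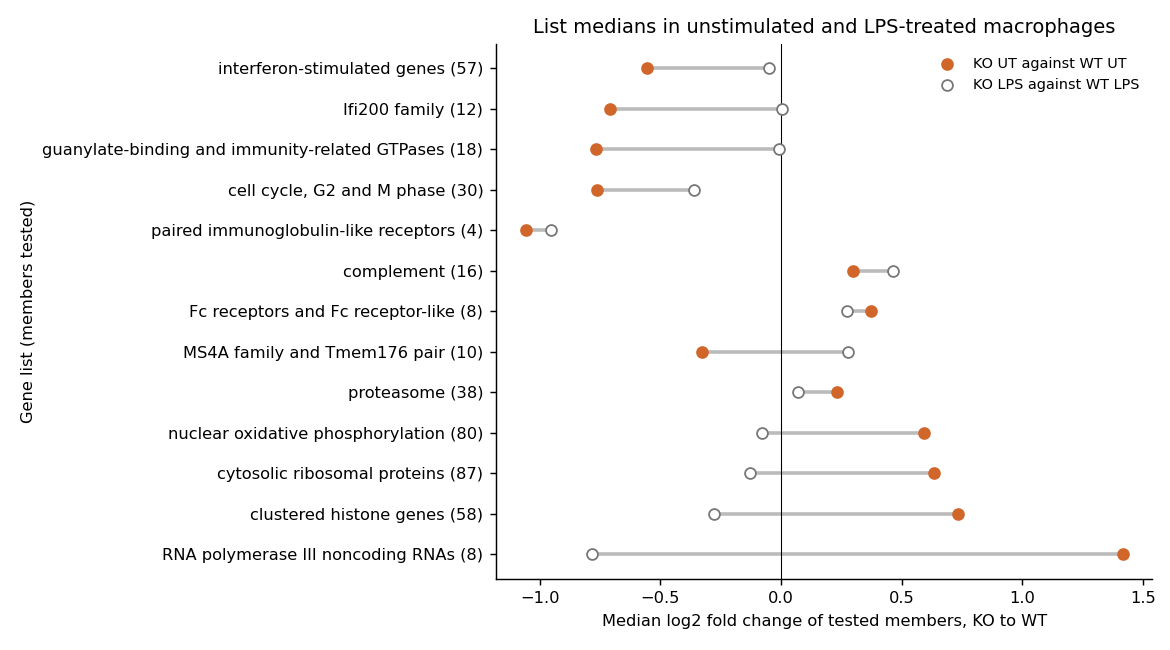
Median log2 fold change of KO to WT over the tested members of 13 gene lists, at rest (filled points) and after LPS (open points), with the number of members in parentheses. The interferon lists move from between -0.768 and -0.556 at rest to near 0 after LPS, the ribosomal, respiratory, histone and polymerase III lists move from above 0 to below it, and the paired immunoglobulin-like receptors stay near -1 in both.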

How the data were processed

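RNA of 12 libraries was sequenced by the authors as paired reads with a stranded total RNA kit in its Globin version. Reads were aligned to GRCm38 with HISAT2 2.1.0 and counted per gene with featureCounts 2.0.0. The deposited values are raw counts. How reads that fit several places were treated, whether strand was used, and which annotation was counted are not given in the sources used here. Identifiers were matched to GENCODE M21, and the 382 that did not match held 0.1217% of counts. Libraries were grouped by their labels. Genes with enough counts were kept with filterByExpr (minimum count 10, minimum total 15), which left 15523 genes. edgeR 4.0.16 was run in R 4.3.3 with TMM scaling and the quasi-likelihood test, in 1 model of all 4 groups, with contrasts at rest, after LPS and for the interaction, and p-values were adjusted by Benjamini-Hochberg. The procedure was tested on simulated data.

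The genes named for their size of change were the 12 protein-coding genes with the largest increase and the 12 with the largest decrease, and up to 5 of other types in each direction, among called genes with a mean of at least 5 CPM and no overlap between groups. Tnf, Lta, Ltb, Il6, Mid1 and Ifi208, which the study names in its own comparison of KO with WT cells, were set in advance. Members of the lists were named besides. The members and lists were chosen with earlier results of these data known. Labels give replicates of 1 number the same batch, which pairs the libraries. Deviations of same-numbered libraries from their group means correlated at -0.0631 to 0.0373, and the block was fitted as an alternative. The other alternatives were RLE and upper-quartile scaling, DESeq2 1.42.0, other filters, a covariate for the share of small structured RNAs, leaving out each library, and, chosen after seeing the data, offsets for exon length. Promoters were those of RefSeq on GRCm38.p6.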

Additional observations from a re-analysis of the deposited data

Results flagged for a closer look

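The genes named for the size of their change or in advance came to 37, those in advance being Tnf, Lta, Ltb, Il6, Mid1 and Ifi208. In 24 of the 37 the KO to WT difference after LPS differed from that at rest. This was read by the interaction term of the edgeR model at an adjusted p below 0.05. The term was above 0 in 11 and below 0 in 13, and is given on the log2 scale. Over all genes 7.32% were above and 9.5% below. Most of these genes were chosen for a large change at rest, which the term subtracts, so a term opposite in sign to that change, as in all but Adam19 and Tnf, is favoured by the choice. Groups of 3 libraries were not searched for single libraries that stand apart.

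Above 0 were the interferon-stimulated and Ifi200 genes Ifi44 (1.34), Ifi206 (1.46), Ifi213 (1.12) and Irf7 (1.15), the pseudogene Ifi203-ps (0.59), and also Slfn1 (1.5), Slfn4 (1.08), Vcan (1.46), Acod1 (1.21), Gm1966 (0.81) and Adam19 (0.72). All but Adam19 were lower in KO at rest, and Adam19 was higher.

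Below 0 were the histone genes Hist2h2ab (-1.97), Hist4h4 (-1.43) and Hist1h1e (-0.97), the small RNAs Rn7s2 (-2.98), Scarna6 (-2.63), Rpph1 (-2.53) and Rn7s6 (-2.27), and S100a8 (-1.05), Rac3 (-0.92), Cbr2 (-0.45), C1qa (-0.31), Apoe (-0.30) and Tnf (-0.38). All of these but Tnf were higher in KO at rest. After LPS the log2 fold changes of C1qa and Apoe were 1.13 and 1.23, and that of Tnf was -1.04. Small structured RNAs took 3.23% to 3.43% of counts in KO LPS and 4.04% to 6.89% in WT LPS, the reverse of the order at rest, and their part in these values was not tested.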

How the results depend on the processing

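At rest 283 genes were called. The count was 160 with a mean of at least 1 CPM and 111 with the share of small structured RNAs as a covariate, which also took the 3700 genes at any fold change to 860. Of the 111, 39 were higher and 72 were lower, and 44 were among the 283. With offsets for exon length 83 were called higher and 167 lower. After LPS the CPM filter and the covariate gave 117 and 103 called. For the interaction, 335 called became 186 among protein-coding genes, 42 with the covariate, 189 with offsets for exon length and 147 with offsets and the replicate block. Leaving out 1 library gave 234 to 302 called at rest and 197 (without WT LPS replicate 3) to 519 (without WT LPS replicate 1) for the interaction. The share did not overlap between genotypes at rest, and the slope of the covariate came from spread within groups, widest in WT LPS. The cause of these moves was not tested.

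With the replicate block 246 genes were called at rest, of which 244 were among the 283, and of the named genes Csf1r, Csf3r and Nos2 no longer passed.

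Of 210 named genes 83 no longer passed with the covariate, of which 65 kept their direction, among them the edgeR values of S100a8 (0.229, adjusted p = 0.582), S100a9 (0.528, adjusted p = 0.353), Acta2 (0.527, adjusted p = 0.525), Fabp5 (0.341, adjusted p = 0.0658), Ms4a7 (0.28, adjusted p = 0.0906) and Timp1 (0.482, adjusted p = 0.104). The log2 fold change changed sign with the covariate in Bax (-0.187), Birc3 (0.043), Bst2 (-0.562), Ccr2 (0.241), Cd44 (0.108), Cenpf (0.744), Cflar (0.112), CT010467.1 (-0.567), Fcer1g (-0.064), Ifi27l2a (-0.823), Ifitm3 (-0.484), Jak2 (0.202), Msr1 (0.034), Pf4 (-0.003), Psmb6 (-0.009), Pycard (-0.131), Rn7s2 (-0.883), Rn7s6 (-0.905), Rps29 (-0.372), Rrm2 (0.133), Tlr7 (0.15) and Tyrobp (-0.23). It did so with offsets for exon length in Bst2 (-0.207), Ctss (-0.028), Ifitm3 (-0.307), Lyz2 (-0.023) and Nfkbia (-0.184), and with offsets and the block in Bst2 (-0.207), Ctss (-0.028), Ifitm3 (-0.307), Lyz2 (-0.024) and Nfkbia (-0.185). B2m, Bax, Csf1r, Ctss, Fcer1g, Ly96 and Lyz2 no longer passed with the offsets, nor, with the block added, did Adgre1, Cd68, Nos2, Rhbdf2 and Traf3. Not passing at first, Abcg1, Mcm4, Tlr4, Tyk2 and Zeb2 passed with each of DESeq2, RLE and upper-quartile scaling and the compared groups only, Abca1, Cebpb, Gsdmd, Ifi27l2a, Il1b, Irf3, Jak1, Lta, Mcm3, Phrf1, Pirb and Runx1 with 1 or more of these, and Abca1, Bst2, Casp1, Ccl2, Fcgr1, Gm42418, Gsdmd, Ifi35, Ifitm3, Il1b, Isg20, Mcm4, Nfkbia, Nr1h3 and Ube2l6 with the offsets.

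Leaving out 1 UT library ended the test's call for Ccl22 (WT 2 or KO 3), Ccl5 (WT 3 or KO 3), Jak2 (WT 2 or KO 2), Fcgr4 (WT 3 or KO 2), Traf3 (WT 2 or KO 1), Birc3 (WT 2), CT010467.1 (KO 1) and Retnlg (KO 2), and for Rhbdf2, Nos2, Csf1r and Csf3r with 4 or more of the libraries. DESeq2 called 105 higher and 146 lower.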

Other observations

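Of 21 tested genes of antigen presentation on MHC class I 8 were lower and 4 were higher. Nlrc5, the transactivator of class I genes, was at 106, 108 and 111 CPM in WT UT and 70.8, 76.1 and 72.2 CPM in KO UT, a log2 fold change of -0.57 ± 0.05. The groups did not overlap. The peptide transporter Tap1 fell by 0.37 and the class Ib genes H2-Q6 and H2-Q7 by 0.99 and 0.62 on the log2 scale, whereas B2m, the light chain, rose by 0.36 ± 0.05 and the heavy chain H2-D1 by 0.28 ± 0.05. H2 genes are close copies of each other, so the split of reads between them is uncertain. With offsets for exon length 2 were higher and 11 were lower, and B2m had 0.057 and did not pass. With the share of small structured RNAs as a covariate 0 were higher and 4 were lower.

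Of 19 genes of the inflammasome list 7 were lower and 1 was higher. Nod1, a sensor of bacterial cell walls, was at 11.6, 10.1 and 11.4 CPM in WT UT and 7.26, 8.11 and 7.59 CPM in KO UT, and the DNA sensor Aim2 at 38.8, 38.8 and 32.9 CPM and 26.7, 28.3 and 27.2 CPM. Their log2 fold changes were -0.53 ± 0.07 and -0.43 ± 0.06. The adaptor Pycard (ASC) was the 1 increase, with 0.48 ± 0.08, and the effectors Casp1 (-0.06) and Gsdmd (-0.15) did not pass. Under RLE scaling 10 were lower and 1 was higher, and with the share of small structured RNAs as a covariate 1 was lower and 1 was higher, and Pycard had -0.131 and did not pass.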
